A study of Mus musculus with 96 samples.

Results

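Transcripts of 10 genes of Notch signalling were followed along the mouse nephron: the 4 receptors Notch1, Notch2, Notch3 and Notch4, the 4 ligands Jag1, Jag2, Dll1 and Dll4, and the 2 target genes Hes1 and Hey1. They were taken by gene symbol from a table of 54532 genes, and each symbol named 1 row. All 10 members passed the filter on low values, 3 or more mice at or above 1 TPM, as did 33793 genes in all. TPM is a transcript abundance scaled to the total of each library and corrected for transcript length, so levels can be set side by side between genes.

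The Notch pathway joins neighbouring cells: a ligand on the surface of one cell binds a receptor on the next, the receptor is cut by proteases, and its released inner part enters the nucleus and works with the DNA-binding protein Rbpj. Its best-known target genes encode repressors of the Hes and Hey families. In the kidney the pathway is known for patterning the early nephron, for the choice between principal and intercalated cells in the collecting duct, and for vessel growth.

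The samples were glomeruli and tubule segments microdissected from kidneys of untreated male C57BL/6 mice aged 6 to 8 weeks on normal chow, with no genetic change named in the labels. The 15 groups were the glomerulus; the first convoluted part of the proximal tubule (PTS1), its straight part in the cortical rays (PTS2) and its last straight part (PTS3); the descending thin limb of short loops (DTL1), that of long loops in the outer (DTL2) and inner medulla (DTL3) and the ascending thin limb (ATL); the thick ascending limb in medulla (MTAL) and cortex (CTAL) and the distal convoluted tubule (DCT); and the connecting tubule (CNT) followed by the cortical (CCD), outer medullary (OMCD) and inner medullary collecting duct (IMCD). PTS2, CTAL and CCD held 5 mice each, ATL and OMCD 4, and the other 10 groups 3. In all, 93 pieces of tissue came from 53 mice. Up to 3 pieces of a mouse were averaged, so n counts mice and p-values measure the spread between them.

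The pieces were dissected tissue and not sorted cells, so in every value below fewer cells of a type and less RNA per cell cannot be told apart. Known segment genes were highest in the group they mark for Slc5a2 in PTS1, Slc22a6 in PTS2, Slc14a2 in DTL1 and Slc12a3 in DCT, whereas Slc7a13 in PTS3 and Calb1 in CNT ranked second of the 15 groups. Odorant and vomeronasal receptor genes, known chiefly from sensory neurons of the nose, set some groups apart. Between 704 and 861 of 1740 such genes reached 1 TPM in DTL1 mice, 372 to 840 in glomeruli, 466 to 517 in DTL3, 260 to 362 in DTL2 and 69 to 239 in OMCD. ATL mice 4 and 6 had 576 and 659, and ATL mice 2 and 3 had 29 and 17. At most 5 reached it in any mouse of CNT, CCD, DCT, CTAL, MTAL, PTS2 or PTS3. Summed TPM of 10 endothelial markers ranged from 4970 to 5005 in glomeruli, 3637 to 4893 in DTL1, 1670 to 2752 in DTL2, 1018 to 2210 in DTL3 and 581 to 1021 in ATL, against 175 to 284 in CCD. The part of these signals in the results on the Notch genes was not tested.

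Each of the 10 genes differed among the 15 groups (limma's moderated F-test on log2(TPM + 1), Benjamini-Hochberg adjusted over all genes, largest adjusted p = 4.33e-16, for Hes1). This is the background of the tissue, since 93.9% of all tested genes passed the same test. A stricter test asks for a level at least 1 log2 unit above every other group, and 5 of the 10 genes passed it against 8.80% of all tested genes. Notch3, Notch4, Dll4 and Hey1 marked the glomerulus in that sense and Jag1 marked DTL1.

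Notch1, a receptor best known from stem and endothelial cells, was highest in the glomerulus at 35.4, 34.4 and 58.3 TPM in the 3 mice. DTL1 followed at 24.2, 28.2 and 37.2 TPM, so the ranges of these 2 groups overlapped. The long-loop limbs DTL3 (14.4 ± 1.85 TPM, mean ± SD) and DTL2 (14.0 ± 3.87) lay below every DTL1 mouse. OMCD held 7.55 ± 1.92 TPM, and its lowest mouse, at 6.07, was above all mice of CNT, CCD and IMCD. In the other 9 tubule groups the mean of Notch1 was between 0.245 TPM in PTS3 and 2.62 TPM in CNT.

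In ATL, Notch1 was split. Mice 2 and 3 had 2.27 and 4.04 TPM, and mice 4 and 6 had 22.9 and 14.3. The higher pair was also the pair with 576 and 659 odorant and vomeronasal receptor genes at 1 TPM. Notch1 was 1.98 log2 units above MTAL over the 4 ATL mice (adjusted p = 6.97e-06), 3.09 with mice 4 and 6 alone, and 0.86 with mice 2 and 3 alone (adjusted p = 0.00839), under the 1 log2 unit asked for.

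Notch2, the receptor known for its role in forming proximal tubules during development, had another order. OMCD led at 24.7, 28.6, 34.5 and 31.7 TPM, followed by DTL3 at 18.8, 31.2 and 36.2 and the glomerulus at 20.9, 26.9 and 34.0. These 3 groups overlapped, and Notch2 marked none of them (margin of OMCD over DTL3 0.09 ± 0.25 log2 units, SE). CCD held 14.6 ± 3.33 TPM and IMCD 10.6 ± 3.24, while PTS3 held the least, 2.21 ± 0.457. Notch2 therefore rose from cortex to outer medulla along the collecting duct in TPM, with every OMCD mouse above every CCD mouse, but its difference of 0.99 ± 0.22 log2 units stayed just under the threshold of 1 (adjusted p = 0.000802). It passed when any 1 of 5 mice (CCD mice 1, 2 or 4, OMCD mice 1 or 2) was left out.

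Notch3, the receptor of pericytes and other mural cells, reached 8.45, 10.5 and 21.1 TPM in the glomerulus. All 3 glomeruli lay above every other mouse, with a margin of 1.35 ± 0.21 log2 units over OMCD (adjusted p = 3.34e-06). That margin was 0.99 without glomerulus mouse 3 and 0.92 after quantile normalization, both under the threshold. All 9 mural and mesangial markers were at 1 TPM or more in each glomerulus, with summed levels of 1909 to 2847 TPM, against 166 to 206 in OMCD, where 3 of 9 were at 1 TPM or more in every mouse, and at most 26.3 in ATL, where 0 of 9 were. The list holds Gata3, which collecting duct cells also express. ATL (4.29 ± 1.40 TPM) and OMCD (4.25 ± 0.333) came next, and the 4 OMCD mice, from 3.76 to 4.45 TPM, were above the 5 CCD mice, from 1.76 to 3.45. PTS1 and PTS2 were below 0.2 TPM in every mouse.

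Notch4, known chiefly from endothelium, stood further apart. It reached 34.9, 39.7 and 64.0 TPM in the glomerulus, and its next group, DTL2, had 6.59, 12.1 and 9.13 TPM. The margin was 2.20 ± 0.34 log2 units (adjusted p = 2.33e-06). DTL1 (8.56 ± 1.45 TPM), DTL3 (7.34 ± 2.86) and OMCD (5.66 ± 1.15) overlapped with DTL2, and IMCD held 2.91, 3.03 and 3.22 TPM. DTL1, DTL2 and DTL3, the tubule groups with the highest means of Notch4, also had the highest endothelial marker sums of the tubule.

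**Figure D1:**
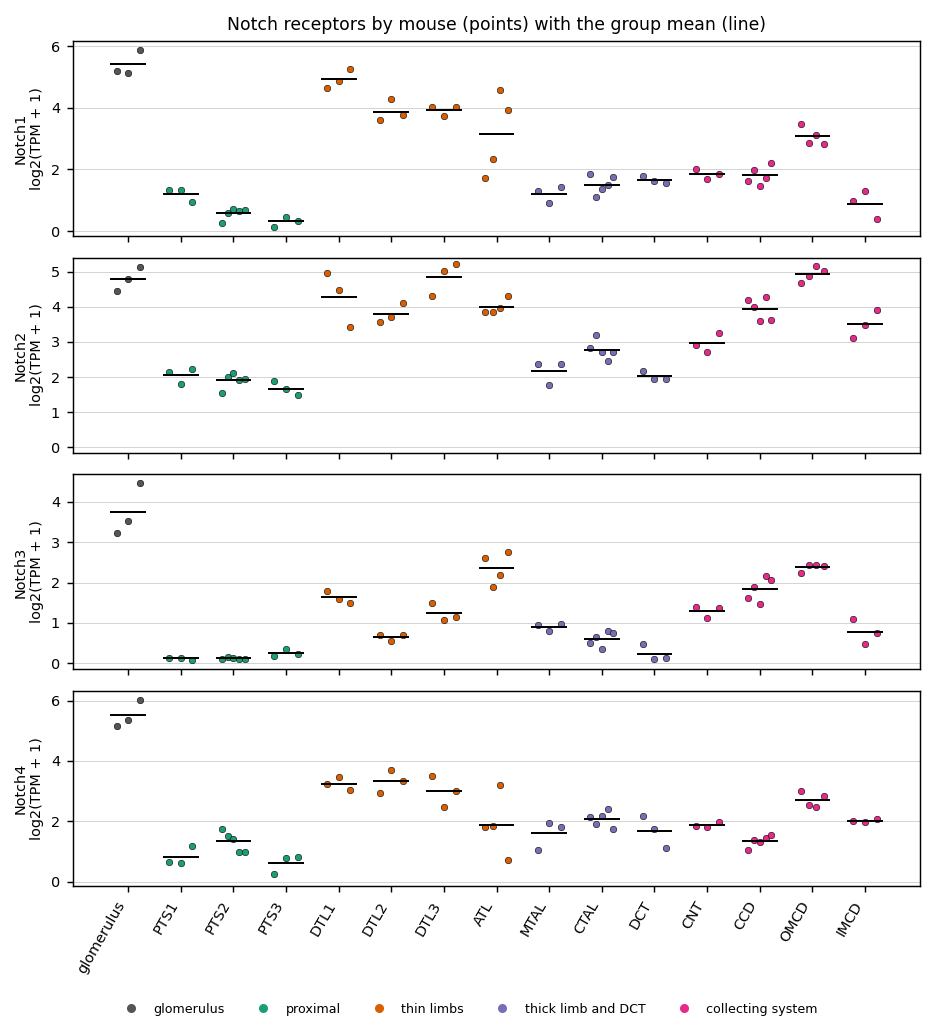
Levels of the 4 Notch receptors in each mouse, as log2(TPM + 1), over the glomerulus and 14 tubule segments in order along the nephron; points are mice (3 to 5 a group), lines are group means and colours are regions. Notch3 and Notch4 stand out in the glomerulus, and Notch2 is as high in OMCD and DTL3 as in the glomerulus.

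The receptors were also set against each other within each mouse, with no test of the shares. Notch2 held the largest mean share of summed receptor TPM in 12 of the 14 tubule groups, from 40.3% in DCT to 69.0% in PTS3. The exceptions were DTL1, where Notch1 held 49.7 ± 15.1% and Notch2 32.8 ± 14.6%, and DTL2, where both were close (37.8 ± 4.98% and 35.8 ± 6.99%). In the glomerulus Notch4 (35.6 ± 0.52%) and Notch1 (33.1 ± 2.35%) held similar shares, and Notch2 only 21.4 ± 2.52%. The summed receptor level was 129 TPM in the glomerulus, 61.0 in DTL1, 47.3 in OMCD, 21.4 in CCD and 3.21 in PTS3.

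Jag1, a Jagged ligand whose mutation in people causes Alagille syndrome with liver, heart and kidney defects, held the highest mean of any of the 4 ligands. It reached 227, 122 and 105 TPM in the 3 DTL1 mice. No mouse of any other group exceeded 40.6 TPM, the highest CNT mouse, and the margin over CNT was 1.90 ± 0.26 log2 units (adjusted p = 1.04e-06). Jag1 kept this mark under each alternative tried and without any 1 mouse. CNT had 40.6, 37.5 and 35.1 TPM, and CCD had 38.1, 32.9, 34.0, 36.8 and 35.2, so these 2 groups overlapped and varied little between mice. The 4 OMCD mice, at 15.9, 16.4, 19.8 and 17.2 TPM, lay below every CCD mouse, and the IMCD mice fell to 0.777, 2.28 and 1.75 TPM. All proximal mice were below 1 TPM.

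In the loop of Henle Jag1 averaged 151 ± 66.4 TPM in the short-loop limb DTL1. In the long loop it averaged 27.5 ± 2.72 TPM in DTL2, 10.2 ± 2.0 in DTL3 and 1.22 ± 1.01 in ATL, and none of these ranges overlapped. In the thick limb it was higher in CTAL (8.64 to 14.7 TPM) than in MTAL (4.78 to 6.17) in every mouse.

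Jag2, the second Jagged ligand, had a different pattern from Jag1. It reached 26.1, 31.3 and 34.2 TPM in the glomerulus, 19.8, 25.6, 7.53 and 34.1 in ATL and 13.5, 18.4 and 30.1 in DTL1, and these 3 groups overlapped. DTL3 held 10.9 ± 0.812 TPM, above every mouse of the remaining 11 groups. CNT and CCD, where Jag1 was high, held Jag2 at only 0.783 ± 0.0922 and 1.1 ± 0.62 TPM. In ATL the 2 mice with few odorant and vomeronasal receptor genes had 19.8 and 25.6 TPM, and the mice with many had 7.53 and 34.1.

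Dll1, a Delta-like ligand known for somite patterning, was highest in the cortical collecting system. CCD mice had 46.5, 84.6, 57.4, 76.7 and 67.8 TPM, and CNT mice 54.3, 55.3 and 35.1. Both groups lay above every mouse of the other 13 groups, with OMCD next at 15, 25.4, 14.2 and 21.9 TPM. The segments just upstream were the lowest of the nephron, with DCT at 2.08, 2.23 and 2.14 TPM, CTAL at 0.996 ± 0.103 and MTAL at 0.740 ± 0.0976. Between DCT and CNT the change in Dll1 was thus 3.99 ± 0.30 log2 units (adjusted p = 1.70e-14), the largest of any member between those segments.

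Dll4, the Delta-like ligand of sprouting endothelium, was highest in the glomerulus, which held 65.2, 77.8 and 87.0 TPM, 2.01 ± 0.31 log2 units above CNT (adjusted p = 2.52e-06). Among tubule groups CNT led with 19.9, 22.0 and 13.5 TPM and CCD followed with 13.7, 18.6, 12.5, 10.0 and 19.3. The ranges of CNT, CCD and DTL1 (9.81 to 14.1 TPM) overlapped. Endothelial markers summed to 379 ± 24.1 TPM in CNT, with 9 of 10 at 1 TPM or more in every mouse, to 215 ± 43.2 in CCD, with 8 of 10, and to 4139 ± 665 in DTL1, with 10 of 10. Erg was below 1 TPM in every mouse of CNT and CCD, and Cdh5 in every CCD mouse. The part of the endothelial markers in the level of Dll4 was not tested. Dll4 was listed at 0 in 3 of the 4 ATL mice and was 0.177, 0.273 and 0.310 TPM in IMCD.

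Jag1, Dll1 and Dll4 were the 3 ligands that rose together between DCT and CNT, and their promoters are shown for that reason. The sequences are RefSeq's for build GRCm38.p6, from 250 bases before to 50 after each start; 8 of the 10 members have an entry, in 9 promoters, and Hes1 and Hey1 have none. They lie at chr2:137116471-137116770 (Jag1, minus strand), chr17:15375774-15376073 and chr17:15376883-15377182 (the 2 starts of Dll1, minus strand) and chr2:119325534-119325833 (Dll4, plus strand). Capitals mark the 2 motifs known to be bound by Hes proteins, the N box CACNAG and the class C site CACGCG, on either strand.
Jag1: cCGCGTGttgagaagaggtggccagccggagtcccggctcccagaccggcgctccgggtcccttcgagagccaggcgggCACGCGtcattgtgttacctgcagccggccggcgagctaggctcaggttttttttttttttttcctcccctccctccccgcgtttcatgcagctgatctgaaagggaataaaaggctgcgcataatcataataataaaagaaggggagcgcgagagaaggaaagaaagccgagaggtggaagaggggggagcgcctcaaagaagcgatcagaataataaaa
Dll1, downstream start: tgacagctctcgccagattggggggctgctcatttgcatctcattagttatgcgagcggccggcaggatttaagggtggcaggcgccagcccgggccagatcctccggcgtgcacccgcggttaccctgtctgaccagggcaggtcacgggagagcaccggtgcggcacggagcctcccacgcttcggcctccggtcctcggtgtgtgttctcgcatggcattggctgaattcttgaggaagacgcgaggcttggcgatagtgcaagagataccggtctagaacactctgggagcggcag
Dll1, upstream start: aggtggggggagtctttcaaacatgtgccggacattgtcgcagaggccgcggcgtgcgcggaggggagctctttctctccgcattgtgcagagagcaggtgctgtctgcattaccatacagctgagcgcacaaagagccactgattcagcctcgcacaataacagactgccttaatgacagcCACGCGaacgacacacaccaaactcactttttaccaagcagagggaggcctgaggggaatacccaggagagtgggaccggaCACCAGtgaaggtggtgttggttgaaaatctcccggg
Dll4: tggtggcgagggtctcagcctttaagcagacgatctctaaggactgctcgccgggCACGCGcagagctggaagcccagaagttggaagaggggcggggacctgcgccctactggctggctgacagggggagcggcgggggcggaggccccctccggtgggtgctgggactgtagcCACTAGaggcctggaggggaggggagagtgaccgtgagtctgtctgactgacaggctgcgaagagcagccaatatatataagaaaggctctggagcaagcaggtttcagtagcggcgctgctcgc
The class C site occurs 2 times for Jag1 and 1 time each for Dll4 and the upstream Dll1 start, and 9.3% of all 32851 promoters of this length hold it. Over the members it is in 5 of the 8 with an entry, also in Jag2 and Notch2, which were not called between DCT and CNT. Of these, Notch2 was 0.945 ± 0.268 log2 units higher in CNT (limma's contrast, adjusted p = 0.0131), just under the threshold of 1. The N box occurs 1 time each for Dll4 and the upstream Dll1 start, and 42.5% of promoters hold it. It is also in Notch1, Notch2 and Notch3, so in 5 of the 8. The 2 motifs do not overlap in these sequences. The core motif of Rbpj, TGGGAA on either strand, is in 25.6% of promoters and in none of the 9 promoters of the 8 members. A match is only a run of letters, and none of these promoters was assayed here.

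**Figure D2:**
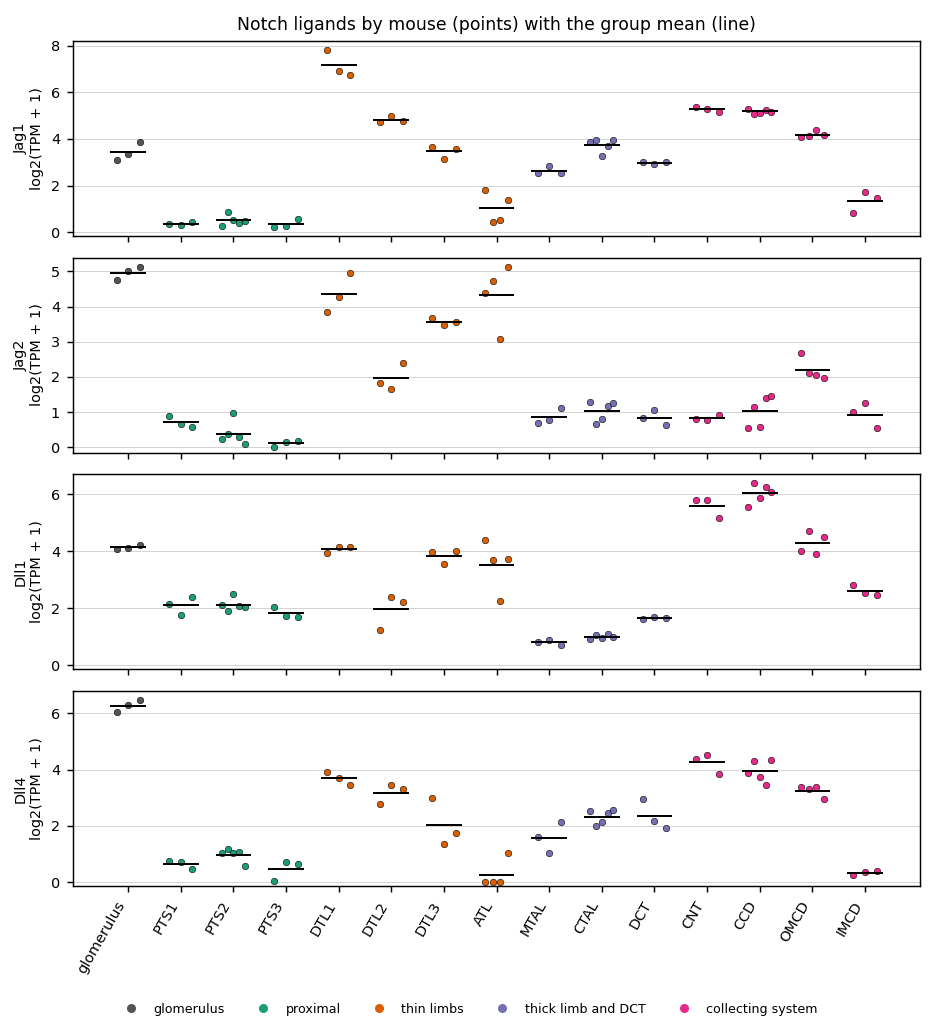
Levels of the 4 Notch ligands in each mouse, as log2(TPM + 1), in the same order; points are mice, lines are group means and colours are regions. Jag1 peaks in DTL1, Dll4 in the glomerulus and Dll1 in CNT and CCD, and Jag1, Dll1 and Dll4 are all higher in CNT than in DCT.

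The leading ligand changed several times along the nephron. Dll4 held 57.1 ± 0.52% of summed ligand TPM in the glomerulus, and Dll1 led in the proximal groups (66.4% to 77.1%), where the sum was only 3.32 to 5.17 TPM. Jag1 led in DTL1 (73.8 ± 9.91%) and DTL2 (66.2 ± 5.50%), Dll1 in DTL3 (35.6 ± 3.08%) and Jag2 in ATL (62.0 ± 10.5%). Jag1 led again in MTAL (59.1 ± 11.3%), CTAL (67.0 ± 5.22%) and DCT (49.4 ± 7.40%). From CNT (45.5 ± 3.44%) and CCD (55.9 ± 5.95%) on, Dll1 led in each group. Its lead was narrow in OMCD, where it held 38.9 ± 8.43% and Jag1 35.8 ± 5.08%, and wider in IMCD at 64.9 ± 10.4%. The summed ligand level was 200 TPM in DTL1, 134 in the glomerulus, 118 in CCD, 105 in CNT, 48.7 in OMCD, 14.2 in DCT and 7.90 in IMCD.

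**Figure D3:**
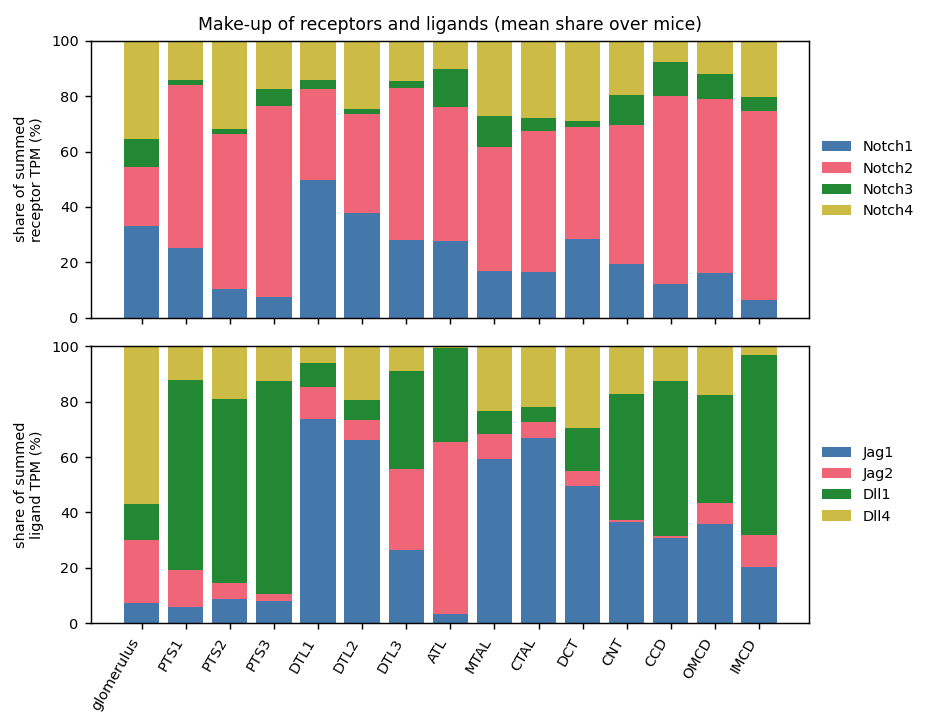
Mean share over mice of each receptor in the summed TPM of the 4 receptors (upper) and of each ligand in that of the 4 ligands (lower), in percent, for the 15 groups. Notch2 is the largest receptor share in most tubule groups, and the largest ligand share passes from Dll4 in the glomerulus to Dll1 in the proximal groups, Jag1 in DTL1 and DTL2, Dll1 in DTL3, Jag2 in ATL, Jag1 from MTAL to DCT and Dll1 from CNT on.

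Hes1, a repressor of the Hes family and a widely used readout of Notch activity that other signals also induce, was highest in the collecting system. CCD mice had 133, 209, 125, 157 and 128 TPM, CNT mice 160, 74.7 and 117, and OMCD mice 48.8, 138, 72.6 and 146. These groups overlapped with one another and with DTL1 (40.9 to 127 TPM). PTS1 was the lowest at 2.51, 2.09 and 2.94 TPM, and all 5 PTS2 mice lay above it at 9.41 to 15.9 TPM. Hes1 was 1.86 ± 0.38 log2 units higher in PTS2 than in PTS1 (adjusted p = 0.000149), 1 member called against 9.57% of all genes, with the median of all genes 0.15 higher in PTS1.

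Hey1, a Hey-family repressor known from vessels and heart, had a mean of at most 3.31 TPM outside 3 groups. The glomerulus held 10.7, 27.1 and 21.4 TPM, ATL 5.33, 15.6, 2.53 and 7.86, and IMCD 6.36, 6.60 and 7.96. Glomerulus and ATL overlapped, and the mark of the glomerulus, 1.3 ± 0.30 log2 units over IMCD (adjusted p = 0.00119), changed with the mice and the scaling. Its margin was 0.99 without ATL mouse 4 and 0.92 with ATL mice 2 and 3 alone, and 0.84 after median ratio rescaling and 0.39 after quantile normalization, each under the threshold. Hey1 was listed at 0 in all 3 PTS3 mice and was at most 0.61 TPM in any mouse of MTAL, CTAL, DCT, CNT and CCD. The groups with the highest Hes1, CNT and CCD, thus held little Hey1, while IMCD held more Hey1 and less Hes1 than either.

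**Figure D4:**
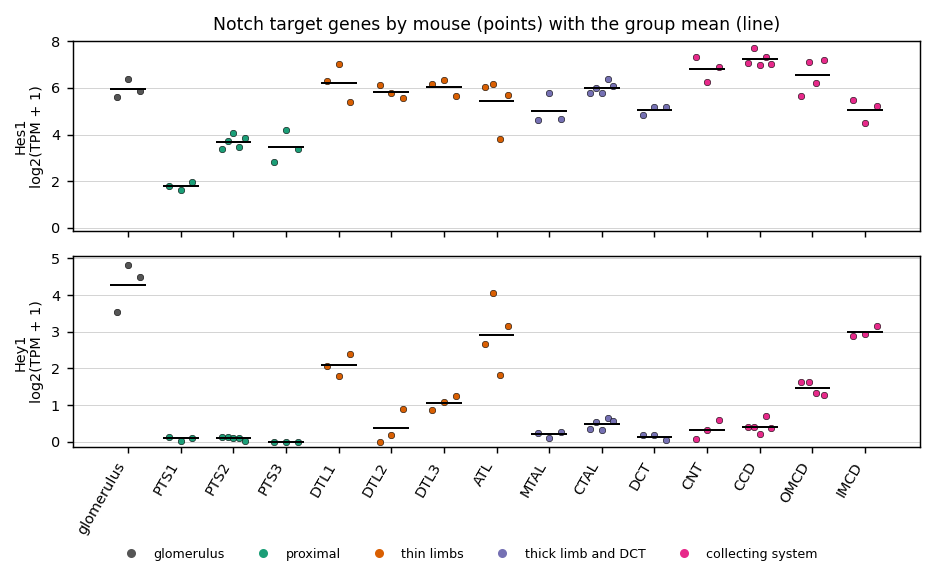
Levels of Hes1 and Hey1 in each mouse, as log2(TPM + 1), in the same order; points are mice, lines are group means and colours are regions. Hes1 is lowest in PTS1 and highest in CNT, CCD and OMCD, whereas Hey1 is highest in the glomerulus, ATL and IMCD.

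The glomerulus was compared with the plain mean of the 14 tubule groups. All 4 receptors, the 3 ligands Jag2, Dll1 and Dll4, and Hey1 were higher there, 8 of the 10 members against 35.6% of all genes called. Differences ran from 1.21 ± 0.22 log2 units for Dll1 to 4.19 ± 0.23 for Dll4, with Notch4 at 3.57 ± 0.25, Hey1 at 3.38 ± 0.22 and Jag2 at 3.34 ± 0.23. Jag1 (0.37 ± 0.19, adjusted p = 0.0735) and Hes1 (0.63 ± 0.31, adjusted p = 0.0623) did not pass, and Jag1 turned to -0.67 after quantile normalization. The median of all genes was itself 0.69 log2 units higher in the glomerulus, and the median of the 10 members was 3.00. The glomeruli had the higher endothelial and mural marker sums given above, and all 10 endothelial markers were at 1 TPM or more in each glomerulus. Podocyte markers summed to 9568 to 11482 TPM in glomeruli, with 6 of 6 at 1 TPM or more in every mouse. The next highest sums were 73.6 to 97.1 TPM in DTL1, with 4 of 6. Leukocyte markers summed to 508 to 764 TPM in glomeruli, within the range of CTAL, 464 to 1004. The part of these lists in the differences was not tested. The number called was 7 after median ratio rescaling, without Dll1 (0.71), and 6 after quantile normalization, without Dll1 (0.42) and Notch2 (0.91).

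All 10 members were lower in the proximal tubule than in the other tubule groups, against 23.8% of all genes called, with the median of all genes 0.41 log2 units lower. The largest differences were those of Jag1 (-3.39 ± 0.11) and Hes1 (-2.96 ± 0.18), and the smallest that of Hey1 (-1.07 ± 0.13). The number past the threshold depended on the scaling: it was 5 after median ratio rescaling and 3 after quantile normalization, with each of the 10 still in the same direction. A further fit, chosen after these values were seen, held only the 7 groups with at most 5 odorant and vomeronasal receptor genes and set PTS2 and PTS3 against MTAL, CTAL, DCT, CNT and CCD. In it Jag1 (-3.54), Hes1 (-2.47), Dll4 (-2.19), Notch1 (-1.16) and Dll1 (-1.07) were past the threshold, and Notch2 (-0.998), Notch3 (-0.79), Notch4 (-0.74), Jag2 (-0.66) and Hey1 (-0.26) were not. These 5 of 10 stood against 20.0% of all genes called in that fit, with the median of all genes 0.07 lower. Endothelial markers summed to 41 to 105 TPM in PTS1, 59 to 141 in PTS2 and 88.8 to 177 in PTS3. In MTAL they summed to 389 to 719 TPM, in CTAL to 416 to 780 and in DCT to 218 to 539. CNT had 353 to 400 TPM and CCD 175 to 284. In each of these groups 8 or 9 of the 10 were at 1 TPM or more in every mouse. Erg was below 1 TPM in every mouse of all these groups. The part of the endothelial markers in the proximal differences was not tested.

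In the thin limbs 5 members were higher than in the other tubule groups, against 29.7% of all genes called and a median of all genes 0.65 log2 units higher. They were Jag2 (2.69 ± 0.13), Notch1 (2.57 ± 0.15), Jag1 (1.47 ± 0.10), Notch2 (1.44 ± 0.11) and Notch4 (1.28 ± 0.14). Median ratio rescaling left 3 of them past the threshold and quantile normalization 2. In the thick limb and DCT 2 members were lower, Dll1 (-2.30 ± 0.13) and Notch2 (-1.11 ± 0.12), against 11.0% of all genes, with the median of all genes 0.32 lower. Notch2 was at 0.90 and 0.77 lower, under the threshold, after the same rescalings, and 0.29 lower in the fit of 7 groups. In that fit 1 member, Dll1, was called lower, against 8.48% of all genes.

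The collecting system held more of 4 members than the other tubule groups, against 7.54% of all genes called and a median of all genes 0.13 log2 units lower. The 3 ligands Dll1 (2.35 ± 0.12 log2 units, adjusted p = 3.47e-22), Jag1 (1.29 ± 0.10) and Dll4 (1.21 ± 0.12) and the target Hes1 (1.55 ± 0.16, adjusted p = 4.81e-11) were higher. Jag1 was 0.98 after quantile normalization. Notch2 (0.88 ± 0.10) and Notch3 (0.76 ± 0.09) were below the threshold. IMCD differed from the other 3 groups of this region: it ranked last of the 15 groups for Dll4, and its means of Jag1 (1.6 TPM) and Hes1 (33.6 TPM) both ranked 11. The fit of 7 groups, which leaves out OMCD and IMCD, compared CNT and CCD with PTS2, PTS3, MTAL, CTAL and DCT. There the differences were 4.37 ± 0.10 for Dll1, 3.20 ± 0.08 for Jag1, 2.60 ± 0.16 for Dll4 and 2.38 ± 0.18 for Hes1, and Notch2 and Notch3 were higher by 1.35 ± 0.11 and 1.14 ± 0.08. In that fit 12.4% of all genes were called.

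Neighbouring segments were then compared to place each change. Between PTS2 and PTS3 0 of the 10 members were called in limma's test, against 4.70% of all genes, and 2 had an unadjusted p under 0.05. Into the thin limb, all 10 members were higher in DTL1 than in PTS3, by 1.38 ± 0.23 (Notch3) to 6.84 ± 0.26 log2 units (Jag1), but 65.5% of all genes were called there and the median of all genes was 1.33 higher. After quantile normalization 5 of the 10 passed, and Notch3 turned to 0.63 higher in PTS3.

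Into the long loop, 7 members were higher in DTL2 than in PTS3, against 40.0% of all genes and a median of all genes 0.71 higher. Jag1 (4.47 ± 0.26) and Notch1 (3.52 ± 0.37) differed most, while Notch3, Dll1 and Hey1 did not pass. Quantile normalization gave 5 higher in DTL2 and 1 (Dll1) higher in PTS3. The short-loop limb DTL1 held more Jag2 (2.44 ± 0.31), Jag1 (2.36 ± 0.26), Dll1 (2.18 ± 0.30), Hey1 (1.75 ± 0.30) and Notch1 (1.13 ± 0.37) than DTL2, 5 members against 28.2% of all genes, with the median of all genes 0.54 higher. The call of Notch1 was lost without DTL1 mouse 5 (0.96) and after median ratio rescaling (0.96). Quantile normalization gave 3 members higher in DTL1 and 1 in DTL2. In DTL1, principal cell markers summed to 54.8 to 131 TPM, fibroblast to 23.3 to 50.9, and mural and mesangial to 35.9 to 45.6. The same lists summed to 15 to 22.5, 9.18 to 15.5 and 11.7 to 23.7 TPM in DTL2. At 1 TPM or more in every DTL1 mouse were 3 of 7, 4 of 4 and 6 of 9. In DTL2 these were 2 of 7, 3 of 4 and 3 of 9. The part of these lists in the differences was not tested.

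Down the long loop, from DTL2 to DTL3, 5 members changed against 9.58% of all genes, with the median of all genes 0.20 higher in DTL3. Dll1 (1.97 ± 0.30), Jag2 (1.65 ± 0.31) and Notch2 (1.07 ± 0.27) were higher in DTL3, and Jag1 (1.35 ± 0.26) and Dll4 (1.13 ± 0.31) were higher in DTL2. Notch2 passed no longer without DTL2 mouse 1 (0.95), DTL3 mouse 2 (0.99) or DTL3 mouse 3 (0.89), nor Dll4 without DTL2 mouse 2 (0.98), DTL3 mouse 2 (0.79) or DTL3 mouse 3 (0.98). Either rescaling left 2 higher in each segment. Principal cell markers summed to 15 to 22.5 TPM in DTL2, with 2 of 7 at 1 TPM or more in every mouse, and to 1495 to 1883 in DTL3, with 3 of 7. Leukocyte markers summed to 174 to 206 TPM in DTL2, with 6 of 6, and to 14.7 to 20.3 in DTL3, with 1 of 6. The part of these markers in the step was not tested.

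Between DTL3 and ATL, 5 members differed against 14.6% of all genes, with the median of all genes 0.28 higher in DTL3. Jag1 (2.41 ± 0.24), Dll4 (1.77 ± 0.29) and Notch4 (1.11 ± 0.32) were higher in DTL3, and Hey1 (1.86 ± 0.28) and Notch3 (1.13 ± 0.21) higher in ATL. Median ratio rescaling gave 2 and 3. Notch4 did not pass without ATL mouse 6 (0.72) or DTL3 mouse 1 (0.86), nor Notch3 without ATL mouse 6 (0.999). Notch1 was not called over the 4 ATL mice (0.80, adjusted p = 0.0743), but DTL3 exceeded ATL by 1.91 when only ATL mice 2 and 3 were kept (adjusted p = 7.19e-08), and the difference was -0.32 when only mice 4 and 6 were. It also passed without ATL mouse 4 (1.27) or 6. Hes1, likewise not called over the 4 mice (0.61, adjusted p = 0.256), passed with ATL mice 4 and 6 alone (1.29, adjusted p = 0.0175) and was at -0.07 with the other pair. Principal cell markers summed to 1495 to 1883 TPM in DTL3, with 3 of 7 at 1 TPM or more in every mouse, and to 163 to 247 in ATL, with 2 of 7. Intercalated cell markers summed to 39.7 to 51.6 TPM in DTL3, with 1 of 8, and to 0.18 to 11.6 in ATL, with 0 of 8. In DTL3, 6 of the 8 were below 1 TPM in every mouse, against 3 in ATL. Foxi1, Atp6v0d2 and Atp6v1g3 reached 1 TPM in at least 1 ATL mouse and in no DTL3 mouse. ATL mouse 4 stood apart in leukocyte markers, which summed to 389 TPM against 11.5 to 16.1 in the other ATL mice. Its fibroblast markers summed to 59.7 TPM, against 2.13 to 13.9 in the others. The part of these lists in the step was not tested.

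From ATL to MTAL, 8 members changed against 28.1% of all genes, with the median of all genes 0.48 higher in ATL. Jag2 (3.51 ± 0.29), Hey1 (2.73 ± 0.28), Dll1 (2.72 ± 0.28), Notch1 (1.98 ± 0.34), Notch2 (1.81 ± 0.25) and Notch3 (1.46 ± 0.21) were higher in ATL, whereas Jag1 (1.57 ± 0.24) and Dll4 (1.26 ± 0.29) were higher in MTAL. Quantile normalization left 5 higher in ATL, without Notch3 (0.31). Dll4 did not pass without MTAL mouse 3 (0.99) or with ATL mice 4 and 6 alone (0.997). Hes1 was not called (0.41, adjusted p = 0.41), but was past the threshold with ATL mice 2 and 3 alone (1.09, adjusted p = 0.0394) and at -0.28 with the other pair. The Jagged ligands moved in opposite directions at this step, also with either pair of ATL mice alone. Leukocyte markers summed to 340 to 610 TPM in MTAL, with 6 of 6 at 1 TPM or more in every mouse. In ATL, with 2 of 6, they summed to 13.0, 11.5, 389 and 16.1 TPM in mice 2, 3, 4 and 6. Principal cell marker sums overlapped, at 163 to 247 TPM in ATL and 104 to 171 in MTAL. The part of either list in this step was not tested.

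In the thick limb Jag1 was higher in CTAL than in MTAL (1.14 ± 0.23 log2 units, adjusted p = 0.000528), 1 member called against 3.15% of all genes, and 0.89 after quantile normalization. Intercalated cell markers summed to 8.7 to 28.3 TPM in MTAL, with 1 of 8 at 1 TPM or more in every mouse, and to 148 to 240 in CTAL, with 3 of 8. The sum of principal cell markers went the other way, from 104 to 171 TPM in MTAL, with 1 of 7, to 53 to 96.7 in CTAL, with 5 of 7. Aqp3 and Hsd11b2 of that list were below 1 TPM in every MTAL mouse and at 1 TPM or more in every CTAL mouse. The part of either list in the Jag1 difference was not tested. Between CTAL and DCT 0 members were called in limma's test, against 4.35% of all genes; 4 had an unadjusted p under 0.05, and Jag1 was 0.79 ± 0.23 and Notch2 0.76 ± 0.24 higher in CTAL with adjusted p of 0.0200 and 0.0374.

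From DCT to CNT 3 ligands, 1 target and 1 receptor rose together. Dll1 (3.99 ± 0.30), Jag1 (2.31 ± 0.26, adjusted p = 1.60e-09), Dll4 (1.92 ± 0.31, adjusted p = 8.71e-06), Hes1 (1.75 ± 0.42, adjusted p = 0.00282) and Notch3 (1.06 ± 0.23) were higher in CNT, 5 of the 10 members against 5.22% of all genes. The median of all genes moved by 0.02 log2 units. For Dll1, Jag1, Dll4 and Hes1 every CNT mouse lay above every DCT mouse, and each was called without any 1 mouse. Notch3 was 0.99 without DCT mouse 2 and 0.96 and 0.91 after the median ratio and quantile scalings. Markers of collecting duct cells were also higher in CNT: the 7 principal cell markers summed to 14502 to 19251 TPM against 1116 to 1252 in DCT, and the 8 intercalated cell markers to 7547 to 8095 against 1167 to 1305. Each of these 15 markers was at 1 TPM or more in every mouse of both segments. Fibroblast markers summed to 62.6 to 79.6 TPM in CNT and 2.3 to 6.6 in DCT. Mural and mesangial markers, Gata3 among them, summed to 95 to 102 TPM in CNT and 52 to 62 in DCT. In each segment 1 of 4 and 1 of 9 of these were at 1 TPM or more in every mouse. The part of all these lists in the step was not tested.

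Between CNT and CCD 0 members were called in limma's test, against 1.12% of all genes, and 2 had an unadjusted p under 0.05. Notch2 came closest, at 0.98 ± 0.24 log2 units higher in CCD (adjusted p = 0.0156). It passed with a pseudocount of 0.1 (1.07) and with the mouse number as a replicate block. Leaving out CNT mouse 3 (1.12), CCD mouse 3 or CCD mouse 5 also brought it past the threshold. From CCD to OMCD 5 members changed, against 12.1% of all genes, with the median of all genes 0.30 higher in OMCD. Dll1 was higher in CCD (1.76 ± 0.24, adjusted p = 4.23e-07), and Notch4 (1.3 ± 0.28), Notch1 (1.27 ± 0.30), Jag2 (1.15 ± 0.26) and Hey1 (1.06 ± 0.24) were higher in OMCD. Jag2 was at 0.98 without OMCD mouse 1. This split of 1 and 4 became 2 and 2 after median ratio rescaling and 2 and 0 after quantile normalization, the second gene higher in CCD being Jag1 (1.17 and 1.20 under these scalings, 0.997 ± 0.21 without them). OMCD had 69 to 239 odorant and vomeronasal receptor genes at 1 TPM, where every CCD mouse had 1, and its endothelial markers summed to 499 to 659 TPM against 175 to 284. Principal cell markers summed to 27369 to 33378 TPM in CCD and 43984 to 61393 in OMCD, each with 7 of 7 at 1 TPM or more in every mouse. Intercalated cell markers were higher in CCD, at 5727 to 7442 TPM with 8 of 8, against 3415 to 4578 in OMCD with 7 of 8. The sum of fibroblast markers was also higher in CCD, at 54.8 to 62.4 TPM with 2 of 4, against 6.49 to 10.9 with 1 of 4. The list was not uniform: Pdgfra and Col1a1 were below 1 TPM in every CCD mouse. Each of the 4 reached 1 TPM in at least 1 OMCD mouse. The part of all these signals in the step was likewise not tested.

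OMCD to IMCD changed 9 of the 10 members, against 18.6% of all genes and a median shift of all genes of 0.32 log2 units. Higher in OMCD were Dll4 (2.92 ± 0.29, adjusted p = 3.20e-11), Jag1 (2.90 ± 0.24, adjusted p = 9.78e-14), Notch1 (2.32 ± 0.34), Dll1 (1.74 ± 0.28), Notch3 (1.62 ± 0.21), Hes1 (1.5 ± 0.40), Notch2 (1.48 ± 0.25) and Jag2 (1.37 ± 0.29). After quantile normalization 6 were higher in OMCD, without Notch3 (0.78) and Jag2 (0.54). Hey1 alone of the called genes went the other way, 1.51 ± 0.28 log2 units higher in IMCD (adjusted p = 2.19e-05), with 6.36 to 7.96 TPM in IMCD mice and 1.43 to 2.12 in OMCD mice. Intercalated cell markers summed to 3415 to 4578 TPM in OMCD and 0.967 to 6.79 in IMCD, where none of the 8 reached 1 TPM in every mouse. Principal cell markers summed to 43984 to 61393 TPM in OMCD and 28219 to 34919 in IMCD, where 5 of 7 were at 1 TPM or more in every mouse and Scnn1b and Scnn1g were below it in each. Endothelial markers summed to 37.2 to 342 TPM in IMCD, with 5 of 10 at 1 TPM or more in every mouse and 3 (Cdh5, Kdr and Erg) below it in each, against 499 to 659 TPM in OMCD with 9 of 10. Leukocyte markers summed to 112 to 511 TPM in OMCD, with 6 of 6, and to about 4.76 in IMCD, with 1 of 6, and 69 to 239 odorant and vomeronasal receptor genes in OMCD stood against 3 to 22 in IMCD. What part these markers have in the differences was not tested.

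**Figure D5:**
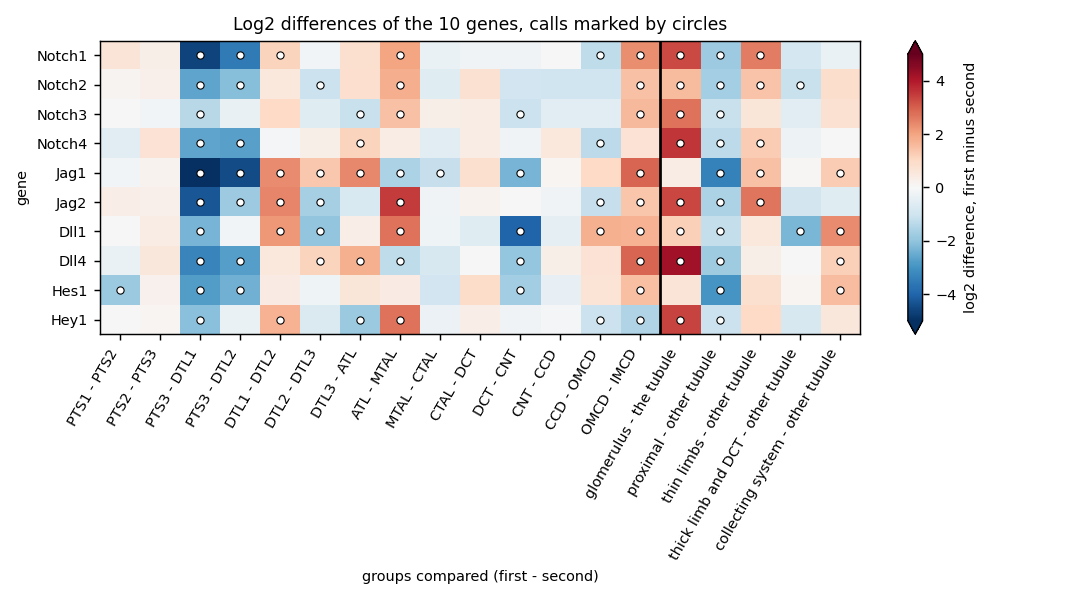
Log2 differences (first group minus second) of the 10 genes in 14 comparisons of neighbouring segments and, right of the line, 5 comparisons of regions; red is higher in the first group, blue higher in the second, circles mark an adjusted p under 0.05 with a difference of at least 1, and the colour scale ends at 5. DCT against CNT shows 5 genes higher in CNT, CNT against CCD has no circle, and Hey1 runs against the others between OMCD and IMCD.

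The rest of the pathway was followed through 45 further genes, of which 43 passed the filter on low values; Hes5 and Hes7, further Hes targets, did not. In the collecting system 5 of the 43 were higher and 1 lower, against 7.54% of all genes called. Among the 5 were the targets Heyl (2.55 ± 0.16 log2 units) and Nrarp (2.14 ± 0.13), a feedback inhibitor of the pathway, Neurl1a (2.13 ± 0.10), a ubiquitin ligase that acts on Notch ligands, and the gamma-secretase subunit Aph1b (1.08 ± 0.12). The lower gene was Dtx4 (-1.19 ± 0.12), a Deltex ubiquitin ligase. The median of the 43 was 0.25, against -0.13 for all genes.

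Heyl and Nrarp took the same step as Hes1 between DCT and CNT. Heyl went from 0.215 ± 0.239 TPM in DCT to 11.3 ± 2.48 in CNT and 21.3 ± 2.52 in CCD (3.34 ± 0.41 log2 units between DCT and CNT, adjusted p = 1.78e-08). Nrarp went from 9.34 ± 1.93 TPM in DCT to 38.0 ± 3.91 in CNT and 34.0 ± 4.72 in CCD (1.95 ± 0.34, adjusted p = 2.93e-05). With Neurl1a (2.43 ± 0.26) they were among the 4 of 43 genes called between DCT and CNT, each higher in CNT, against 5.22% of all genes. Nrarp then dropped to 1.94 ± 0.470 TPM in OMCD (3.59 ± 0.28 log2 units below CCD, adjusted p = 1.08e-13), where Hes1 was at 101 ± 47.9, and to 0.152 ± 0.00839 in IMCD.

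In the glomerulus 24 of the 43 were higher (median 1.24, against 0.69 for all genes, of which 35.6% were called), among them Dlk1 (5.03 ± 0.19), a non-canonical ligand, the fringe glycosyltransferases Mfng (3.28 ± 0.23) and Lfng (3.16 ± 0.32), which change how receptors read Delta and Jagged ligands, and the co-activator Maml3 (3.05 ± 0.22). In the proximal tubule 22 were lower and 1, Dtx4, higher (median -1.17, against -0.41 for all genes, of which 23.8% were called). In the thin limbs 13 were higher, a share close to the 29.7% of all genes called, among them Mfng (1.99 ± 0.13) and Lfng (1.83 ± 0.18), and in the thick limb and DCT 3 were lower, a share below the 11.0% of all genes called: Heyl (-1.67 ± 0.17), Dtx4 (-1.17 ± 0.14) and Neurl1a (-1.06 ± 0.11). From OMCD to IMCD, where 18.6% of all genes were called, 12 were lower in IMCD, among them Mfng (2.03 ± 0.30), Lfng (2.0 ± 0.41), Hes6 (1.91 ± 0.18), Numbl (1.51 ± 0.26) and Nrarp (1.34 ± 0.32). The other 2 called were higher in IMCD, Dtx1 (2.37 ± 0.31) and the gamma-secretase subunit Psenen (1.18 ± 0.11).

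Genes with the most similar pattern to each member were named by Pearson's r of group means of log2(TPM + 1) over the 15 groups, a description in which all points share their libraries. Jag1 was most like Smad1 (r = 0.950), Rpp14 (0.938) and Spry1 (0.931), which also had their highest mean in DTL1. Dll1 was most like Asb4 (0.932), Cr2 (0.929) and Ralgapa2 (0.924), with the highest mean in CCD. Dll4 was most like Slc43a3 (0.955), Pros1 (0.950) and Rapgef4 (0.942), and Notch4 like Ebf1 (0.966), Eng (0.961) and Calcrl (0.959), each highest in the glomerulus. Notch1 was most like Dennd2c (0.983), Notch2 like Plxna1 (0.966), Notch3 like Hid1 (0.937), Jag2 like Foxn2 (0.967), Hes1 like Prune1 (0.966) and Hey1 like Myom1 (0.966). Among the members themselves Notch1 and Jag2 were closest (r = 0.920), followed by Notch1 and Notch4 (0.887), and Hes1 was closest to Jag1 (0.810).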

How the data were processed

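Microdissected glomeruli and tubule segments of male C57BL/6 mice were profiled by RNA sequencing of ultra-low input. The deposited table holds TPM computed by the authors. STAR 2.5.4a and RSEM 1.3.0 are named in the submitters' processing notes; the genome build and annotation are not given in the sources used here. TPM keep no read depth, so depth is unknown and no counting interval is given. Sample columns (93 in all) summed to 999998.6 to 1000190.3. Tubule columns hold steps of 0.01 and glomerulus columns steps of 0.1, so very low levels are coarser in the glomerulus. The PTS2 column m2_PTS2_b matched no title, the only PTS2 title of that mouse number being m2_PTS2_a. It entered PTS2 as a further mouse, with no number assigned. No column of sample values was left aside (0), and 3 single-cell samples were not analysed here.

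Pieces of 1 mouse number and segment were joined by their mean log2(TPM + 1), which left 53 mice in 15 groups; printed TPM are plain means. The 33793 genes at or above 1 TPM in 3 or more mice entered limma 3.58.1 (R 4.3.3; lmFit, eBayes with trend), and 1 spread estimated over all groups. Tests were the moderated F-test, 14 two-sided contrasts of neighbours, 5 of regions, and an intersection-union test of each group against every other. Benjamini-Hochberg adjustment was over all tested genes within each contrast; a call needs an adjusted p under 0.05 and, outside the F-test, a difference of 1 log2 unit or more. Values after ± are SD for levels and shares and SE for log2 differences, which understate changes of low genes. The fits were tested on simulated data. Named genes were the 10 members, called genes of the 45 listed pathway genes and, for each member, the 3 most similar genes with a group mean of at least 10 TPM. Members and lists were chosen with earlier results of these data known. Some listed genes that were called are not reported here by name. Alternatives were other pseudocounts (0.1, 5), filters and scalings, other treatment of pieces, a replicate block, ATL pairs alone and leaving out each mouse. Exons of 5 members (Notch1, Notch2, Notch3, Dll1, Dll4) overlap 6 other genes in GENCODE M21, 5 of them on the other strand, and how such reads were counted is not given in the sources used here. Figures were made with matplotlib 3.10.9.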

Additional observations from a re-analysis of the deposited data

Results flagged for a closer look

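Of 50 sets of 4 or 5 mice (a member in a group), 4 had 1 mouse far from the others, by the gap to the nearest mouse over the whole range; chance gives about 1 in 20. Notch3 in OMCD was 3.76 TPM in mouse 1 against 4.37 to 4.45 TPM in the other 3. Jag2 in OMCD was 5.44 TPM in the same mouse against 2.93 to 3.28. Jag2 in PTS2 was 0.960 TPM in mouse 4 against 0.0600 to 0.290. Dll4 in ATL was 1.05 TPM in mouse 6 and listed at 0 in the other 3. With the other 3 at 0, any value above 0 is flagged, so the rate of 1 in 20 does not apply to this set.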

How the results depend on the processing

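The count of members differing among groups was 10 under every alternative. The 61 member calls between neighbours moved to 38 with a pseudocount of 5, the 29 between regions to 16 with a pseudocount of 5 and 15 after quantile normalization, and the 5 members marking 1 group to 3 in each of these 2 settings. The other alternatives kept these counts within 1.5 times (45 to 74, 20 to 36 and 4 to 5). Leaving out 1 mouse at a time gave 59 to 63, 29 to 30, 4 to 5 and, for members differing among groups, 10 each time. Of the 95 calls, 49 held under every alternative and every omission, and 85 under every omission; a pseudocount of 5, which shrinks differences of low genes, ended 38, quantile normalization 35 and median ratio rescaling 17. Among values past the threshold in either setting, direction turned in 2 cases, both after quantile normalization: Notch3 was 0.63 higher in PTS3 than in DTL1, and Dll1, not called before, 1.44 higher in PTS3 than in DTL2; the cause was not tested. Values under the threshold in both settings also changed sign, such as Notch1 between DTL3 and ATL (0.80, but -0.32 with ATL mice 4 and 6 alone, and 1.91 and called with mice 2 and 3 alone). Mouse numbers were not taken to pair animals across segments, since no label says so. Same-number deviations correlated at -0.22 to 0.28 (median 0, 290 pairs), and different-number deviations at -0.28 to 0.26 (median 0, 1016 pairs). Of the 53 mice, 26 correlated best with their own number, a hint from the data and not the design. The number to be met by chance was not computed, and the main tests took the 53 as independent. With the mouse number as a replicate block the counts were 61, 29, 5 and 10, and 3 calls fell under the threshold (Notch1 DTL1 over DTL2, 0.95; Notch3 ATL over DTL3, 0.96; Notch4 DTL3 over ATL, 0.83), while 3 others passed (Notch1 DTL3 over ATL, Notch2 CCD over CNT, Jag1 CCD over OMCD). Depth is unknown, so levels under about 1 TPM, such as Hey1 in most tubule groups, carry no stated precision.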
